A study of Mus musculus with 5 samples.

Results

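The 41 genes described here encode the ligands, receptors, SMAD proteins and feedback regulators of bone morphogenetic protein (BMP) and transforming growth factor beta (TGF-beta) signalling. They were chosen by gene symbol from a roster that leaves out the Id genes. All 41 were found among the 46983 genes of the count table, and 40 passed the filter on low counts. Kupffer cells, the macrophages that live in the sinusoids of the liver, were sequenced as poly-A RNA from mice of 2 genotypes, ID3+/- (heterozygous, 3 libraries, replicates 1 to 3) and ID3-/- (knockout, 2 libraries, replicates 2 and 3). No treatment, age, strain or further allele is named in the labels, every library's column carries the tag 3w, which they do not explain, and the sources used here do not say which part of Id3 was removed or whether other cells of these mice also lacked it. The labels describe mechanical disruption through a filter and no sort, and markers of other liver cells were detected in every library. Nothing in the labels ties the libraries to separate animals. Each p-value therefore reflects the spread among these 5 libraries, which may be technical.

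BMP and TGF-beta ligands bring together a pair of type I and a pair of type II serine-threonine kinase receptors. The type I receptor then phosphorylates a receptor-regulated SMAD, which enters the nucleus with the common partner SMAD4. BMP branches use SMAD1, SMAD5 and SMAD9, while TGF-beta and activin branches use SMAD2 and SMAD3. Id3 and its relatives are classical targets of the BMP branch, and SMAD6, SMAD7, BAMBI and the SMURF ligases limit signalling in return. In liver, sinusoidal endothelium and stellate cells supply much of the BMP ligand, hepatocytes answer by making hepcidin, and signals from these neighbours help Kupffer cells acquire their identity.

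Each library held 74823374 to 80944135 counts assigned to genes. Id3 stood at 221 to 256 CPM (assigned counts scaled by TMM to a common library size, the level scale used unless stated) in the heterozygous libraries and at 1.01 and 1.42 in the knockout libraries, so each library matched its label. Kupffer cell markers were high throughout, with 12 genes summing to 60700 to 66800 CPM in heterozygous and 66500 to 73300 CPM in knockout libraries, and none was at 0. Of these 12, 3 were called higher and 0 lower, namely Marco (2.09-fold, edgeR adjusted p = 0.00768), C1qb (1.28-fold) and C1qc (1.30-fold). Not called, but lower in both knockout libraries than in every heterozygous one, were Clec4f (0.871-fold), Timd4 (0.843-fold), Vsig4 (0.844-fold) and Adgre1 (0.806-fold). Cd5l (1.25-fold) and C1qa (1.22-fold) were likewise separate but higher, and Csf1r, Folr2 and Clec1b overlapped. Such separation was common, at 26.9% (lower) and 24.6% (higher) of all genes tested. Markers of several other cell types also differed with genotype. The 17 hepatocyte markers summed to 26700 to 31400 CPM in heterozygous but 5720 and 13100 CPM in knockout replicates 2 and 3, with 13 lower, 0 higher and none at 0. The 15 sinusoidal endothelial markers summed to 1560 to 1790 against 1390 to 1550 CPM (5 lower, 0 higher), and the 12 stellate and fibroblast markers to 420 to 477 against 452 to 534 CPM (4 lower, 1 higher). That sum is mostly Ecm1, and without it the other 11 summed to 127 to 140 against 81.6 to 85.6 CPM. The 11 neutrophil markers summed to 169 to 190 against 301 to 619 CPM (7 higher, 0 lower). That sum is mostly Mmp9 (103, 105 and 87.7 against 259 and 158 CPM) and Csf3r (63.0, 71.5 and 68.0 against 130 and 102 CPM). S100a8, S100a9, Lcn2 and Cxcr2 were also called higher. Ngp, Ltf and Camp were high in knockout replicate 2 only, at 78.3, 40.5 and 17.6 CPM, against 0.465, 0 and 0.0517 CPM in knockout replicate 3. The 6 platelet markers summed to 106 to 119 against 153 to 168 CPM (1 higher, 0 lower). The platelet sum is mostly Pf4, the gene called, at 103, 104 and 98.8 against 154 and 145 CPM. The other 5 platelet markers were not called. The 10 T and NK cell markers summed to 39.2 to 60.2 against 66.7 to 113 CPM (Cd4 higher, 0 lower). Cd4 was the most abundant of them in every library, at 23.4, 29.3 and 25.2 against 50.4 and 39.4 CPM. The other 9 were not called. Among these, Cd3d, Nkg7 and Klrb1c were higher in both knockout libraries and the rest overlapped. The 7 monocyte markers overlapped in sum, at 167 to 288 against 217 to 283 CPM, but Ly6c2 was 25.7-fold higher (edgeR adjusted p = 0.0121). Cholangiocyte, B cell and erythroid markers also overlapped in sum, with 0 called, but differed between knockout replicates 2 and 3. Their sums were 5.59 to 12.7 against 4.06 and 44.1 CPM, 208 to 305 against 501 and 278 CPM, and 858 to 1010 against 1030 and 756 CPM. The part of these cells in the differences below was not tested, and in bulk libraries fewer cells of a type and less RNA per cell cannot be told apart.

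Loss of Id3 went with changes in both directions at every level of the pathway except the ligands, where a single gene passed. 6 members rose, namely the ligand gene Tgfb1, the receptor genes Acvrl1 and Tgfbr2, the inhibitory Smad6, the pseudoreceptor gene Bambi and the corepressor gene Tgif1. The 7 that fell were the receptor genes Bmpr1a, Acvr2a and Tgfbr3, the SMAD genes Smad2 and Smad7, the ubiquitin ligase gene Smurf2 and the corepressor gene Skil. Rises were small, from 1.34-fold to 1.73-fold, and falls reached a knockout level of 0.308 of the heterozygous level. This contrast depended on the fit. With the length and GC offsets described below, the log2 changes of Bambi, Tgif1 and Tgfbr2 grew to 1.35, 0.97 and 0.81. Those of Tgfb1, Smad6 and Acvrl1 shrank to 0.52, 0.44 and 0.30. Among the falls only that of Smad7 grew (-0.83), and Smad2 changed sign. Thus 13 of 40 tested members (32.5%) passed the edgeR quasi-likelihood test at an adjusted p under 0.05, against 16.4% of all 16436 genes tested. Genes called higher made up 6.41% of all genes tested and genes called lower 10.0%. The median log2 change, knockout over heterozygous, was -0.32 over the 40 members and -0.016 over all genes tested. The members also had longer exonic sequence, at a median of 5058 against 3737 bases, and these medians are not corrected for length. Calls were more frequent among abundant genes in general, at 33.4% of genes with a mean of 100 CPM or more and 2.92% of those under 1 CPM. Of the members, 4 of 6 in the first band and 0 of 8 in the other were called. In the band of 1 to 10 CPM, 4 of 12 members were called, against 12.6% of genes. In that of 10 to 100 CPM, 5 of 14 members were called, against 24.5% of genes. The libraries of the genotypes did not overlap for 8 members that were higher and 16 that were lower in the knockout, where 24.6% and 26.9% of all genes tested showed the same.

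**Figure D1:**
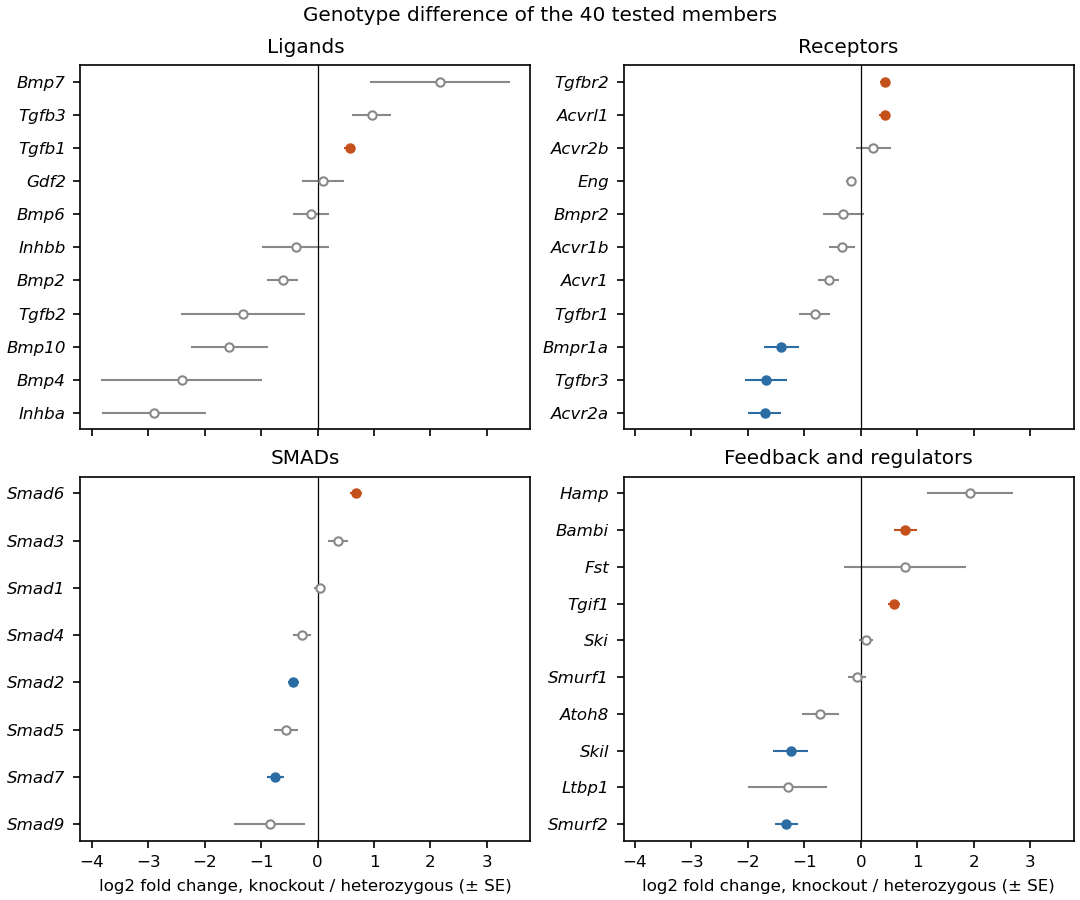
Log2 change (knockout over heterozygous, horizontal axis) with its SE for each of the 40 tested members, in 4 panels by role. Filled symbols passed the edgeR test (orange higher, blue lower) and open grey symbols did not. The called rises stay between 0.42 and 0.79, while the called falls reach -1.70 in Acvr2a.

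Promoters of called members that moved in opposite directions are printed to let a reader compare the sequence in front of them. RefSeq promoters (GRCm38.p6) listed 30 of the 41 members, and 6 of the 13 called members had a single listed start. For the 2 of these with the smallest p in each direction, the 250 bases before the start follow, 5′ to 3′ on the strand of the gene. Capitals mark GGCGCC, a palindrome bound by SMAD1 and SMAD5.
Smad6 (chr9:64022060-64022309, minus strand): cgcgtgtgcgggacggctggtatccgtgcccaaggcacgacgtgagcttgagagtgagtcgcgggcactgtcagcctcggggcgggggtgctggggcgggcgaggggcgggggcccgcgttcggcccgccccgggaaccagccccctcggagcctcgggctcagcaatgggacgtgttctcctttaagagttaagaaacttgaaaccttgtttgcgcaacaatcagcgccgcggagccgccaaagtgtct
Tgfb1 (chr7:25686752-25687001, plus strand): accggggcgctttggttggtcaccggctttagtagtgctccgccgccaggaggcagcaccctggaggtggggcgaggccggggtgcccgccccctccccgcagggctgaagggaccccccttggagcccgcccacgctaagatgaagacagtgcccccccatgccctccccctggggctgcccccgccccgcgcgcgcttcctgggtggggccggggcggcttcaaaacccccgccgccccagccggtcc
Smurf2 (chr11:106920716-106920965, minus strand): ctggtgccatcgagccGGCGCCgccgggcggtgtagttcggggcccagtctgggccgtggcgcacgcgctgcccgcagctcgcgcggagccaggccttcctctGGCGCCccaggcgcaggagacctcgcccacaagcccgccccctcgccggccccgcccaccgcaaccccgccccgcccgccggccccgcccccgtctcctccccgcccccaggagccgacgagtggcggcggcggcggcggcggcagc
Acvr2a (chr2:48813859-48814108, plus strand): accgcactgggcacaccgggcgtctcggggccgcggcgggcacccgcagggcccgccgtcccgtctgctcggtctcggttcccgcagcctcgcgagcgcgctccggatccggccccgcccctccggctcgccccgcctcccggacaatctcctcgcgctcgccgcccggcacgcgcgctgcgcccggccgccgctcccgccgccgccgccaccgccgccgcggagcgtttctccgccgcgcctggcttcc
Smad6 and Tgfb1 rose and had 66.8% and 75.2% G and C in this window, while Smurf2 and Acvr2a fell and both had 82.0%, against a median of 52.4% over 32851 listed starts. GGCGCC stood 2 times in front of Smurf2, beginning 147 and 234 bases before the start, and in none of the other 3 windows. The same letters occurred in 9.59% of all listed starts and in front of 8 of the 30 listed members, Bmpr1a among them. These 2 shares are not alike, since a member with several listed starts counted if any of them held the letters. Neither share was matched for G and C content. The E-box letters bound by E proteins, searched as CAGCTG and as CAGGTG on both strands, were in none of these 4 windows, and were present in 13% and 17.2% of all listed starts. These matches describe letters only and were not linked to binding.

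Among the ligands, Tgfb1, the TGF-beta isoform known from myeloid cells, was the most abundant and rose with genotype. It stood at 207, 192 and 228 CPM in the heterozygous libraries and at 311 CPM in both knockout libraries. The knockout libraries lay above every heterozygous one, a log2 difference of 0.57 ± 0.099 (SE over 3 and 2 libraries, edgeR adjusted p = 0.0185). Per kilobase of exon, Tgfb1 was at 41.4 CPM in heterozygous and 61.6 CPM in knockout cells, while the next ligand gene was at 7.15 CPM (Bmp2) in heterozygous and 5.81 CPM (Tgfb3) in knockout cells.

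The remaining 10 tested ligand genes did not pass. Bmp2, an angiocrine ligand of liver endothelium, was at 34.3, 23.4 and 18.5 CPM in heterozygous and 15.8 and 17.4 CPM in knockout libraries. These ranges did not overlap, but the heterozygous values spread widely (log2 change -0.62 ± 0.27, 95% interval -1.27 to 0.029, edgeR adjusted p = 0.165). Tgfb3 was at 13.1, 8.15 and 9.06 against 26.4 and 12.9 CPM, so only knockout replicate 2 lay above the heterozygous range (0.96 ± 0.35, edgeR adjusted p = 0.11). About 12.4% of its exonic bases lie under antisense gene models, and the sources used here do not give the strand setting of the counting. Bmp6, the endothelial ligand that sets hepcidin, was at 6.22 ± 2.20 CPM (SD, n = 3) and 5.77 ± 0.791 CPM (SD, n = 2). Gdf2, which encodes BMP9 and is made by stellate cells, was at 6.94 ± 2.22 CPM (SD, n = 3) and 7.42 ± 2.76 CPM (SD, n = 2). The groups overlapped for both, with log2 changes of -0.11 and 0.095. For Gdf2, knockout replicate 3 (9.37 CPM) lay above all heterozygous libraries and knockout replicate 2 (5.46 CPM) within their range. Per kilobase, Gdf2 and Bmp6 were also neighbours whose heterozygous libraries overlapped, at 1.48 to 2.85 and 1.19 to 2.24 CPM.

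Low ligand genes gave little to compare. Inhbb, an activin subunit, was at 0.961 to 2.26 CPM in heterozygous and 0.703 and 2.02 CPM in knockout libraries. Bmp10, the other ligand of the ALK1 receptor, was at 0.523, 0.849 and 1.03 against 0.411 and 0.129 CPM (log2 change -1.56 ± 0.69, edgeR adjusted p = 0.174). Inhba, the activin A subunit, had 17, 34 and 9 counts in heterozygous and 3 and 2 in knockout libraries, and was the closest of the low ligand genes to the threshold (edgeR adjusted p = 0.0811). The counts of Bmp4 were 48, 70 and 15 against 0 and 16, and those of Bmp7 11, 0 and 14 against 46 and 29. Tgfb2 held 3 to 29 counts per library. Bmp5 was not tested, with 15, 0 and 4 counts in heterozygous and 0 in both knockout libraries, where a floor of 3 counts is 0.0388 to 0.0398 CPM.

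Receptor genes divided by abundance. The 2 with the highest levels rose and the 3 called lower were all under 10 CPM. Tgfbr2, the TGF-beta type II receptor, was at 399, 404 and 381 CPM in heterozygous and 534 and 524 CPM in knockout libraries. The groups were separate and tight, with a log2 change of 0.42 ± 0.078 (SE, edgeR adjusted p = 0.0216). Acvrl1 encodes ALK1, the type I receptor for BMP9 and BMP10 that is best known from endothelium. It was at 175, 158 and 188 CPM against 235 and 229 CPM, again without overlap (0.42 ± 0.10, edgeR adjusted p = 0.0394). The part of endothelial cells in this rise was not tested. The ALK1 co-receptor endoglin (Eng) was at 102, 93.6 and 96.9 against 89.5 and 83.1 CPM and did not pass (-0.17 ± 0.092, edgeR adjusted p = 0.245). Unlike Acvrl1, Eng was lower in both knockout libraries.

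Acvr2a, a type II receptor shared by activins and BMPs, had, with Tgfbr3, the lowest fitted change of the called members. Acvr2a levels were 4.05, 3.12 and 4.01 CPM in heterozygous and 1.18 and 1.11 CPM in knockout libraries, a log2 change of -1.70 ± 0.29 (SE, edgeR adjusted p = 0.018). Some 7.84% of its exonic bases also lie in exons of Orc4 on the opposite strand. Its paralog Acvr2b was at 5.28, 4.60 and 2.91 against 4.46 and 5.5 CPM, with overlapping groups (0.22 ± 0.31, edgeR adjusted p = 0.679). Tgfbr3, betaglycan, which presents TGF-beta to its receptors and binds inhibin, was at 8.75, 4.65 and 4.45 against 1.72 and 1.99 CPM (-1.68 ± 0.38, edgeR adjusted p = 0.0355). Heterozygous replicate 1 stood apart there, though all heterozygous libraries were above both knockout ones. Bmpr1a, the BMP type I receptor ALK3, was at 8.20, 9.58 and 5.40 against 2.6 and 3.23 CPM (-1.41 ± 0.31, edgeR adjusted p = 0.0333).

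The other 4 receptor genes did not pass either. Tgfbr1, the TGF-beta type I receptor ALK5, was at 33.7, 53.3 and 31.4 against 25.6 and 19.2 CPM. Both knockout libraries were below the heterozygous range, which was wide (log2 change -0.82 ± 0.27, 95% interval -1.47 to -0.16, edgeR adjusted p = 0.0902). Acvr1, the BMP type I receptor ALK2, was at 13, 13.8 and 11.1 against 7.79 and 9.26 CPM, also without overlap (-0.57 ± 0.18, edgeR adjusted p = 0.0817). Acvr1b, the activin receptor ALK4, and Bmpr2, the BMP type II receptor, overlapped between genotypes, at 5.67 to 8.16 against 5.10 and 5.70 CPM and at 3.35 to 4.13 against 1.96 and 4.07 CPM. Per kilobase of exon, the mean heterozygous levels ran from Tgfbr2 (48.2 CPM), Acvrl1 (40.7 CPM) and Eng (24.0 CPM) down to Tgfbr1 (6.04 CPM) and Acvr1 (2.62 CPM). Bmpr2 was lowest, at 0.208 CPM, on the longest exonic sequence of all members (17983 bases).

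**Figure D2:**
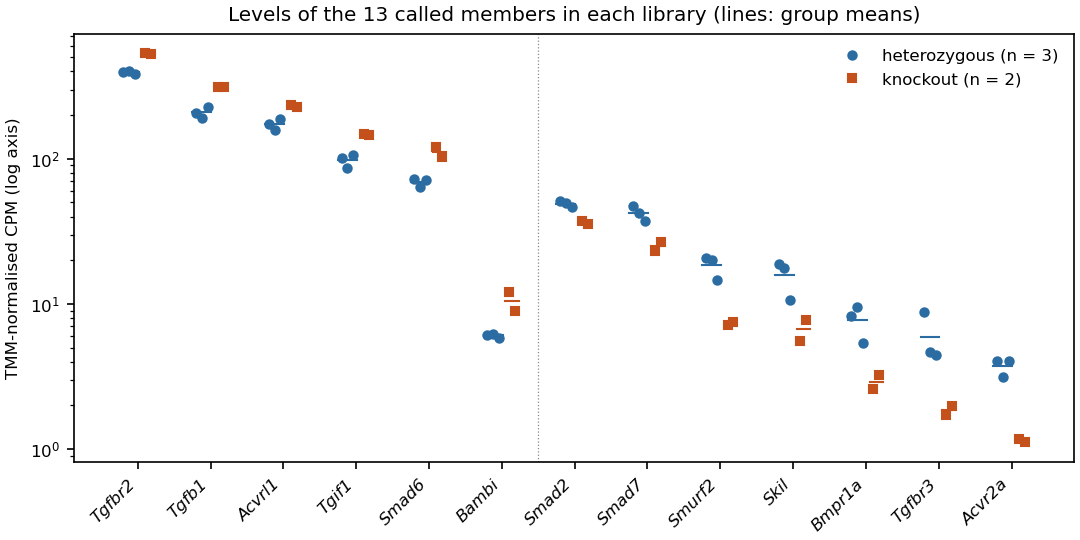
TMM-normalised CPM (vertical log axis) of the 13 called members in each of the 3 heterozygous (blue circles) and 2 knockout (orange squares) libraries, with group means as lines. The 6 that rose stand left of the dotted line and the 7 that fell right of it, and the groups do not overlap in any of the 13.

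The inhibitory SMAD genes moved in opposite directions. Smad6, whose product blocks mainly the BMP branch, was at 72.2, 63.9 and 71.8 CPM in heterozygous and 120 and 103 CPM in knockout libraries. Its groups were separate, with a log2 change of 0.68 ± 0.11 (SE, edgeR adjusted p = 0.0165). Smad7, whose product blocks both branches, was at 47.0, 42.2 and 37.2 against 23.1 and 26.9 CPM, with a log2 change of -0.75 ± 0.15 (edgeR adjusted p = 0.024). The ratio of Smad6 to Smad7 in counts per exonic base, which library-wide scaling does not alter, was 2.17, 2.14 and 2.72 in heterozygous and 7.32 and 5.39 in knockout libraries.

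Of the receptor-regulated SMAD genes, Smad2 alone passed. It was at 51.4, 49.3 and 46.8 CPM in heterozygous and 37.4 and 35.8 CPM in knockout libraries (log2 change -0.43 ± 0.10, edgeR adjusted p = 0.0395), and its sign turned with length and GC offsets (0.19). Smad3, the other SMAD of the TGF-beta branch, was at 10.7, 13.2 and 11.9 against 17.3 and 13.3 CPM and did not pass (0.36 ± 0.18, edgeR adjusted p = 0.229). In the BMP branch, Smad1 was at 131, 124 and 115 against 123 and 130 CPM, fully overlapping (0.035 ± 0.095, 95% interval -0.20 to 0.26, edgeR adjusted p = 0.848). Smad5 was at 21.2, 23 and 15.2 against 14.7 and 12.1 CPM (-0.56 ± 0.22, edgeR adjusted p = 0.13), and the low Smad9 at 0.384 to 0.925 against 0.246 and 0.424 CPM. Smad4, the common partner, was at 69.8, 63.1 and 49.6 against 50.6 and 49.4 CPM, and heterozygous replicate 3 lay with the knockout libraries (-0.28 ± 0.16, edgeR adjusted p = 0.269). Smad1 was the most abundant of the BMP SMAD genes per kilobase, at 19.7 CPM in heterozygous cells, against 2.67 CPM for Smad5 and 0.112 CPM for Smad9.

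Feedback genes and nuclear corepressors also split. Bambi, a receptor-like protein without a kinase that dampens TGF-beta and BMP signalling, was at 6.11, 6.20 and 5.86 CPM in heterozygous and 12 and 8.98 CPM in knockout libraries (log2 change 0.79 ± 0.20, edgeR adjusted p = 0.043). Tgif1, a homeodomain corepressor of SMAD2 and SMAD3, was at 101, 86.5 and 107 against 148 and 147 CPM, with tight knockout values (0.59 ± 0.11, edgeR adjusted p = 0.0234). Smurf2, a ubiquitin ligase for SMADs and receptors, had the smallest p of all members. It was at 20.6, 20.0 and 14.7 against 7.18 and 7.56 CPM (-1.32 ± 0.20, edgeR adjusted p = 0.0144). Its paralog Smurf1 was at 75.3, 66.2 and 55.2 against 68.6 and 56.6 CPM and did not pass (-0.068 ± 0.16, 95% interval -0.46 to 0.32, edgeR adjusted p = 0.82). Skil, the corepressor SnoN that TGF-beta itself induces, was at 18.8, 17.7 and 10.7 against 5.54 and 7.80 CPM (-1.24 ± 0.31, edgeR adjusted p = 0.0423). The related Ski was at 171, 139 and 170 against 177 and 165 CPM (0.093 ± 0.12, edgeR adjusted p = 0.655), so the groups overlapped.

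Hamp encodes hepcidin, the iron hormone that hepatocytes make in response to BMP6. It was at 0.937, 1.33 and 4.24 CPM in heterozygous and 3.79 and 12.8 CPM in knockout libraries, with overlapping groups and no call (log2 change 1.93 ± 0.76, edgeR adjusted p = 0.134). Knockout replicate 3 held both the most Hamp and more hepatocyte marker counts than knockout replicate 2, though the heterozygous libraries had more of those markers than either. Mice carry a close copy, Hamp2, so its count is uncertain. Atoh8, a helix-loop-helix target of BMP signalling, was at 3.24, 2.76 and 3.32 against 2.39 and 1.40 CPM and did not pass (-0.72 ± 0.33, edgeR adjusted p = 0.194). Ltbp1, which anchors latent TGF-beta to matrix, was at 0.608 to 1.24 against 0.159 and 0.517 CPM. Fst, the activin trap follistatin, held 11 to 22 counts in heterozygous and 3 and 54 in knockout libraries.

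Ratios of paralogs and partners within each library also differed between genotypes. These pairs were picked after their values were known, and with 3 libraries against 2 no one-sided exact permutation test of a ratio can give a p below 0.1, so the ratios, all in counts per exonic base, are a description. Acvrl1 over Bmpr1a was 31.8, 24.5 and 51.8 in heterozygous and 135 and 105 in knockout libraries. Tgfbr2 over Tgfbr1 was 9.43, 6.05 and 9.69 against 16.6 and 21.8. Smurf1 over Smurf2 was 3.56, 3.22 and 3.65 against 9.29 and 7.28, the tightest heterozygous values among these pairs. Tgif1 over Skil was 9.26, 8.40 and 17.2 against 45.9 and 32.5. In each of these pairs the lower knockout library exceeded the highest heterozygous one, whereas Tgfb1 over Tgfb3 overlapped, at 10.6, 15.8 and 16.9 against 7.89 and 16.2. Length and GC offsets, which act gene by gene, made these pair differences smaller, except that of Tgfb1 minus Tgfb3 (log2 -0.39 to -0.41). The log2 change of Acvrl1 minus that of Bmpr1a went from 1.83 to 1.02, Tgfbr2 minus Tgfbr1 from 1.24 to 0.91, Smurf1 minus Smurf2 from 1.25 to 0.84, Tgif1 minus Skil from 1.83 to 1.5 and Smad6 minus Smad7 from 1.43 to 1.27. Tgfbr1 itself went to -0.10 (edgeR adjusted p = 0.838).

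**Figure D3:**
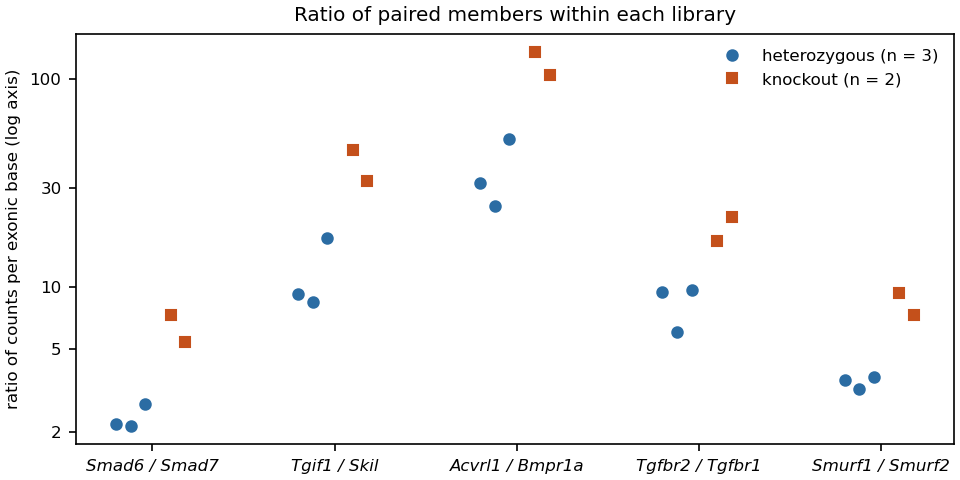
Ratio of 2 members in counts per exonic base (vertical log axis) for 5 pairs, in each heterozygous (blue circles) and knockout (orange squares) library. Smad6 over Smad7 lies between 2.14 and 2.72 in heterozygous libraries and at 5.39 and 7.32 in knockout libraries.

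A further 86 genes of the pathway, from a list of other ligands, co-receptors, extracellular inhibitors, SMAD partners and targets, were followed for context, and 59 were tested. Of these, 5 rose and 9 fell (23.7% called against 16.4% of all genes tested, median log2 change -0.53). With length and GC offsets 1 was higher and 6 lower, without heterozygous replicate 1 or heterozygous replicate 2 in turn 0 and 1, and without knockout replicate 2 1 and 7. DESeq2 called 7 higher and 16 lower. By p-value the first rise was that of Nrros, the smallest of the 5 in size, a macrophage protein that holds latent TGF-beta1, which went from 579, 554 and 583 CPM to 800 and 813 CPM (0.50 ± 0.076, edgeR adjusted p = 0.0148), in the same direction as Tgfb1. Tgfbi, a matrix protein induced by TGF-beta, rose (0.61 ± 0.13), as did the ubiquitin ligase genes Stub1 (0.62 ± 0.11) and Wwp2 (0.57 ± 0.13) and the low Gdf9 (1.27 ± 0.28). Of those that fell, 4 are best known from hepatocytes, namely Inhbc (-2.70 ± 0.28), Hfe2 (hemojuvelin, -2.27 ± 0.45), Tfr2 (-1.85 ± 0.33) and Tmprss6 (-1.61 ± 0.28), and hepatocyte markers were lower in the same libraries. That link was not tested. Bmp1, a procollagen protease (-1.39 ± 0.25), the low Bmper, a BMP-binding protein (0.864, 0.456 and 0.398 against 0.0133 and 0 CPM), Twsg1 (-1.21 ± 0.29), Hipk2 (-0.67 ± 0.14) and the kinase gene Map3k7 (-0.71 ± 0.16) fell as well. Genes that did not pass included the iron sensor gene Hfe (0.19 ± 0.097), the protease gene Furin (-0.019 ± 0.11), the deubiquitinase gene Usp4 (0.058 ± 0.14), the integrin gene Itgav (-0.84 ± 0.24) and the TGF-beta target Klf10 (-0.037 ± 0.11). Of the 10 tested SMAD-induced targets on the list, Tgfbi alone was called (10% against 16.4% of all genes tested), and 8 had log2 changes below 0.

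Which members were called depended on the libraries included, while the directions of the 13 did not. Without heterozygous replicate 1, heterozygous replicate 2 or knockout replicate 2, 0 members passed, of 38, 39 and 41 tested, where 2.90%, 2.09% and 5.15% of all genes tested still did. Without heterozygous replicate 3, 13 of 39 members passed (15.7% of all genes tested), 12 of them among the 13 called with all libraries. Without knockout replicate 3, 9 of 41 passed (12.9% of all genes tested), 7 of them shared with the 13. None of the 13 changed sign in these 5 fits. Called members that fell had longer exonic sequence (median 6351 bases) and a lower GC content (median 44.9%) than those that rose (5058 bases and 51.0%). With offsets for transcript length and GC content, 7 of 40 members passed against 9.18% of the genes tested, and all 7 were among the 13. These were, with their log2 changes, Tgfb1 (0.52), Tgfbr2 (0.81), Smad6 (0.44), Bambi (1.35) and Tgif1 (0.97), higher, and Smad7 (-0.83) and Smurf2 (-0.88), lower. The log2 changes of the other 6 became 0.30 (Acvrl1), -0.72 (Bmpr1a), -1.02 (Acvr2a), -1.30 (Tgfbr3), -0.53 (Skil) and 0.19 (Smad2).

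**Figure D4:**
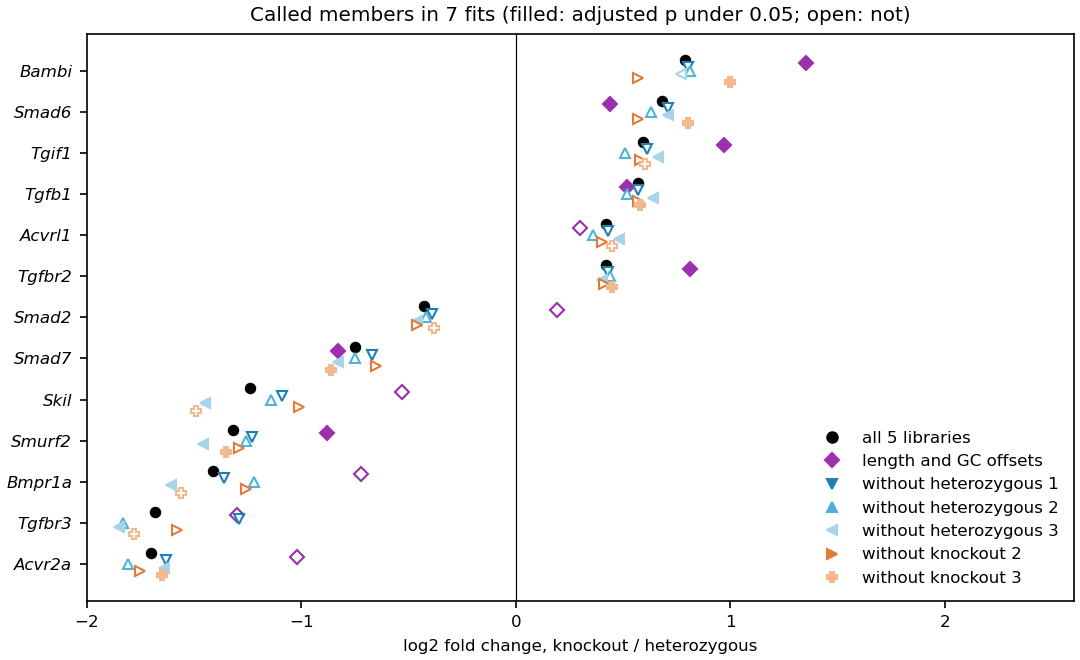
Log2 change (knockout over heterozygous, horizontal axis) of the 13 called members with all 5 libraries, with length and GC offsets and without each library in turn. Filled symbols passed an adjusted p under 0.05. Values stay on their side of 0 in every fit shown except Smad2 with the offsets (0.19).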

How the data were processed

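Poly-A RNA of Kupffer cells was measured in 5 libraries. The authors deposited raw read counts per gene, 1 column per library. Per the submitters' processing notes, HTSeq 0.5.4, DESeq 1.18.0, R 3.1.2 and the build mm9 were used. The sources used here do not name the aligner, annotation release or strand setting. Per the labels' protocols, RNA was amplified with SMART-seq V4. No molecular barcodes are mentioned, so count floors cover counting error only. Entries that name no gene (47.0% to 48.6% of all counts in heterozygous, 40.0% to 42.8% in knockout libraries) were left out.

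Genotypes were compared across all 16436 genes passing filterByExpr, with TMM scaling and the quasi-likelihood test of edgeR 4.0.16 in R 4.3.3, no covariate, and Benjamini-Hochberg adjustment over all of them. A call is an adjusted p under 0.05, with no minimum fold. Residual degrees of freedom were 3 and prior ones 3.26, which set the 95% intervals, and the common biological coefficient of variation was 0.339. Lengths and GC content came from GENCODE M21 (46488 of 46983 genes matched by ID). None of its coordinates are printed, since its build is not mm9. Its exon models of 13 members share bases with another gene, 2 of them (Bmp5 and Tgfb3) at least 10% of their bases. Offsets were loess fits (span 0.5) per library. The analysis was tested on simulated data.

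The members, lists and tests were chosen with earlier results of these data known. All members are accounted for: values per library are given for those called or with a mean of at least 10 CPM, and other pathway genes are named by smallest p (up to 10 called) or highest level (up to 5 not called); Wwp2, Twsg1, Map3k7 and Gdf9 were added to complete the count. Alternatives were DESeq2 1.42.0, limma-voom (limma 3.58.1), RLE, upper-quartile and library-size scaling, 2 other filters, a robust fit, a replicate block, the offsets, and leaving out each library.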

Additional observations from a re-analysis of the deposited data

How the results depend on the processing

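The 6 higher and 7 lower calls were also made with RLE scaling, the robust fit and a filter of 1 CPM in 2 samples. DESeq2 called all 13, with 4581 genes in all, and 4 further members, while limma-voom lost Skil, library size alone Skil, upper-quartile scaling Smad2, and no filter Bambi and Smad2. With length and GC offsets 1504 genes passed, 49.7% of them higher (39.1% without), and 2 members remained lower. Leaving out 1 library gave 335 to 2540 called genes, 0 to 5 higher members and 0 to 8 lower members. With 1 knockout library left, that library was assumed to vary like the heterozygous ones. The cause was not tested. With upper-quartile scaling 49.0% of 2942 called genes were higher.

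The replicate numbers 2 and 3 occur in both genotypes, but same-numbered libraries did not deviate together (correlations of -0.026 and -0.062 across genes), and the labels do not tie a number to a shared litter or day. With the replicate block, 1 gene passed in all, and 0 members and 0 of the other pathway genes were higher or lower. The block leaves few residual degrees of freedom, and heterozygous replicate 1 has no same-numbered knockout library. The loss of calls therefore cannot show whether the differences follow replicate number. None of the 13 called members changed sign, with Smad6 at 0.71 and Smurf2 at -1.22 on the log2 scale.

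Signs turned in members that were not called, and in Smad2. With the offsets Bmpr2 went to 0.41, Smad5 to 0.048 and Smad2 to 0.19 on the log2 scale. With the block Bmp6 went to 0.21 and Smurf1 to 0.043, and with limma-voom Fst went to -0.21. Leaving out 1 library gave ranges of -0.28 to 0.22 (Bmp6), -0.33 to 0.43 (Gdf2), -1.33 to 0.17 (Inhbb), -0.92 to 0.12 (Bmpr2), -0.011 to 0.081 (Smad1), -0.22 to 0.075 (Smurf1) and -2.37 to 1.70 (Fst).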
